A study of Homo sapiens with 4 samples.

Results

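The domains around 9 genes that direct formation of the germ layers were followed in Hi-C libraries of H1 human pluripotent stem cells, an established embryonic stem cell line. The genes were GATA4, GATA6, SOX17, TBXT, EOMES, PAX6, FOXA2, SOX1 and MIXL1, 9 of 20037 protein-coding genes in the RefSeq annotation of GRCh38.p14. They were chosen by name, with a position given for each, and not by any measured value, although earlier results of these data were known at that time. Cells carried a lentiviral shRNA against HNRNPU (shHNRNPU) or against luciferase (shLUC, the control), and all had been through puromycin selection. There were 2 libraries in each group, named here by group and replicate number. Hi-C joins and sequences stretches of DNA that lie close together in the nucleus. From it the authors divided each chromosome into 3 kinds of interval. Domains are stretches whose DNA meets itself more than its surroundings, boundary regions separate some of them, and gaps are the rest, which the sources used here do not define. Every position was a multiple of 40 kb, the bin. In each library, the interval that held a locus and the 2 intervals on each side were taken, which gave 45 of the 5018 and 5020 intervals in shLUC replicates 1 and 2, and 45 of the 4922 and 4209 in shHNRNPU replicates 1 and 2. The labels do not say whether the libraries of a group came from separate cultures, so the spread between them may be technical. The files used here hold no contact counts or expression values, so sequencing depth, the level of HNRNPU and the expression of the 9 genes were not analysed here.

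In pluripotent cells, genes that specify the germ layers are mostly silent but poised, with CpG-rich promoters held by Polycomb proteins, and many of them lie in gene-poor regions full of distant enhancers. A domain limits which enhancers a promoter commonly meets. GATA4, GATA6, SOX17 and FOXA2 encode transcription factors of endoderm, and GATA4 also acts in the heart. TBXT (Brachyury), EOMES and MIXL1 encode factors of the primitive streak, from which mesoderm and endoderm emerge. PAX6 and SOX1 encode factors of neural ectoderm. HNRNPU is a nuclear protein that binds RNA and chromatin.

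The promoters of 3 of these genes are shown because their start sites lay nearest to a called border (EOMES and TBXT) or, in 1 library, inside a boundary region (MIXL1). Each is the 250 bases before the start site on the coding strand, from RefSeq on GRCh38.p14, and the capitals mark CG.
TBXT (chr6:166168656-166168905, minus strand): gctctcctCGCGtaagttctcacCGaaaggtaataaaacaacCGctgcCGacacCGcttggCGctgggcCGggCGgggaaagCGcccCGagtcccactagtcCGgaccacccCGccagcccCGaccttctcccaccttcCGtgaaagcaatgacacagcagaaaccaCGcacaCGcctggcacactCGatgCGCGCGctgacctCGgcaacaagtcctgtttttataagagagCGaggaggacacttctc
EOMES (chr3:27722324-27722573, minus strand): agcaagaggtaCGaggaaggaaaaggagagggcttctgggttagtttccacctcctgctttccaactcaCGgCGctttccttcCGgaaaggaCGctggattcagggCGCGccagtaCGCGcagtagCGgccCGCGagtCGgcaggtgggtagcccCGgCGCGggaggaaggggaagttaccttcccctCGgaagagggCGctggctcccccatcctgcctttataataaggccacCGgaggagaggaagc
MIXL1 (chr1:226223414-226223663, plus strand): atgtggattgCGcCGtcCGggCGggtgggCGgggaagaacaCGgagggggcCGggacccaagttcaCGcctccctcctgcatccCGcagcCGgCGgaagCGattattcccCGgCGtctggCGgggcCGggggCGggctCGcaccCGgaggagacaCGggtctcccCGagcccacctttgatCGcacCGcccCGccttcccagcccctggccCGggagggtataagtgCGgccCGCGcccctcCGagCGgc
RefSeq promoters were found for 6 of the 9 genes, and GATA4, SOX17 and FOXA2 were not matched. The motif CG occurred 23 times in the TBXT promoter, 19 times in that of EOMES and 30 times in that of MIXL1. The 6 promoters held between 16 and 31 CG, and the median of 27326 promoters of this length was 11. At least as many CG as in MIXL1 were found in 12.2% of all promoters, as many as in TBXT in 25.4% and as many as in EOMES in 34.3%. The HindIII site AAGCTT, at which the chromatin was cut (it reads the same on both strands), was in 0 of the 6 promoters and in 5.03% of all promoters.

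Over the whole genome, 1 library stood apart. It was shHNRNPU replicate 2, with 3419 domains, whereas the other 3 had 3981 to 4018. The build given by the submitters is hg38. On each of the 24 chromosomes the 4 libraries ended at the same position, which differed from the hg38 length by -83.7 to 65.4 kb, and all RefSeq genes lay inside. Whether positions inside the chromosomes are offset as well was not tested. A position in the files was treated as uncertain by about 2 bins, and distances of a gene from a border are given in that light.

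At the level of the interval, the 9 loci differed between libraries to unlike degrees, and the shares below lay near those of all genes. The sequence common to the 4 intervals was 3.03% (TBXT) to 87.5% (GATA6) of that covered by any of them. A domain held the locus in all 4 libraries at 8 of the 9 genes. The exception was MIXL1, which a boundary region held in shLUC replicate 2. Among all protein-coding genes, 16.8% lay in a boundary region or gap in at least 1 library. Both edges of the interval were within 1 bin of each other in all 4 libraries at 0 of the 9 loci, beside 5.98% of the 16679 protein-coding genes that lay in a domain in all 4 libraries. The count was also 0 of 9 when the same bin was asked for (beside 0.995%), and within 2 bins it was 1 of 9 (GATA6, beside 10.9%). With all bins of the genome that lay in domains in place of genes, 9.23% kept both edges within 1 bin. At least 1 edge was kept within 1 bin at 3 of 9 loci (33.3%, beside 33.9% of the genes in domains). These were the upper edge at GATA6 and SOX17 (2 of 9, beside 19.5%) and the lower edge at FOXA2 (1 of 9, beside 20.4%).

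**Figure D1:**
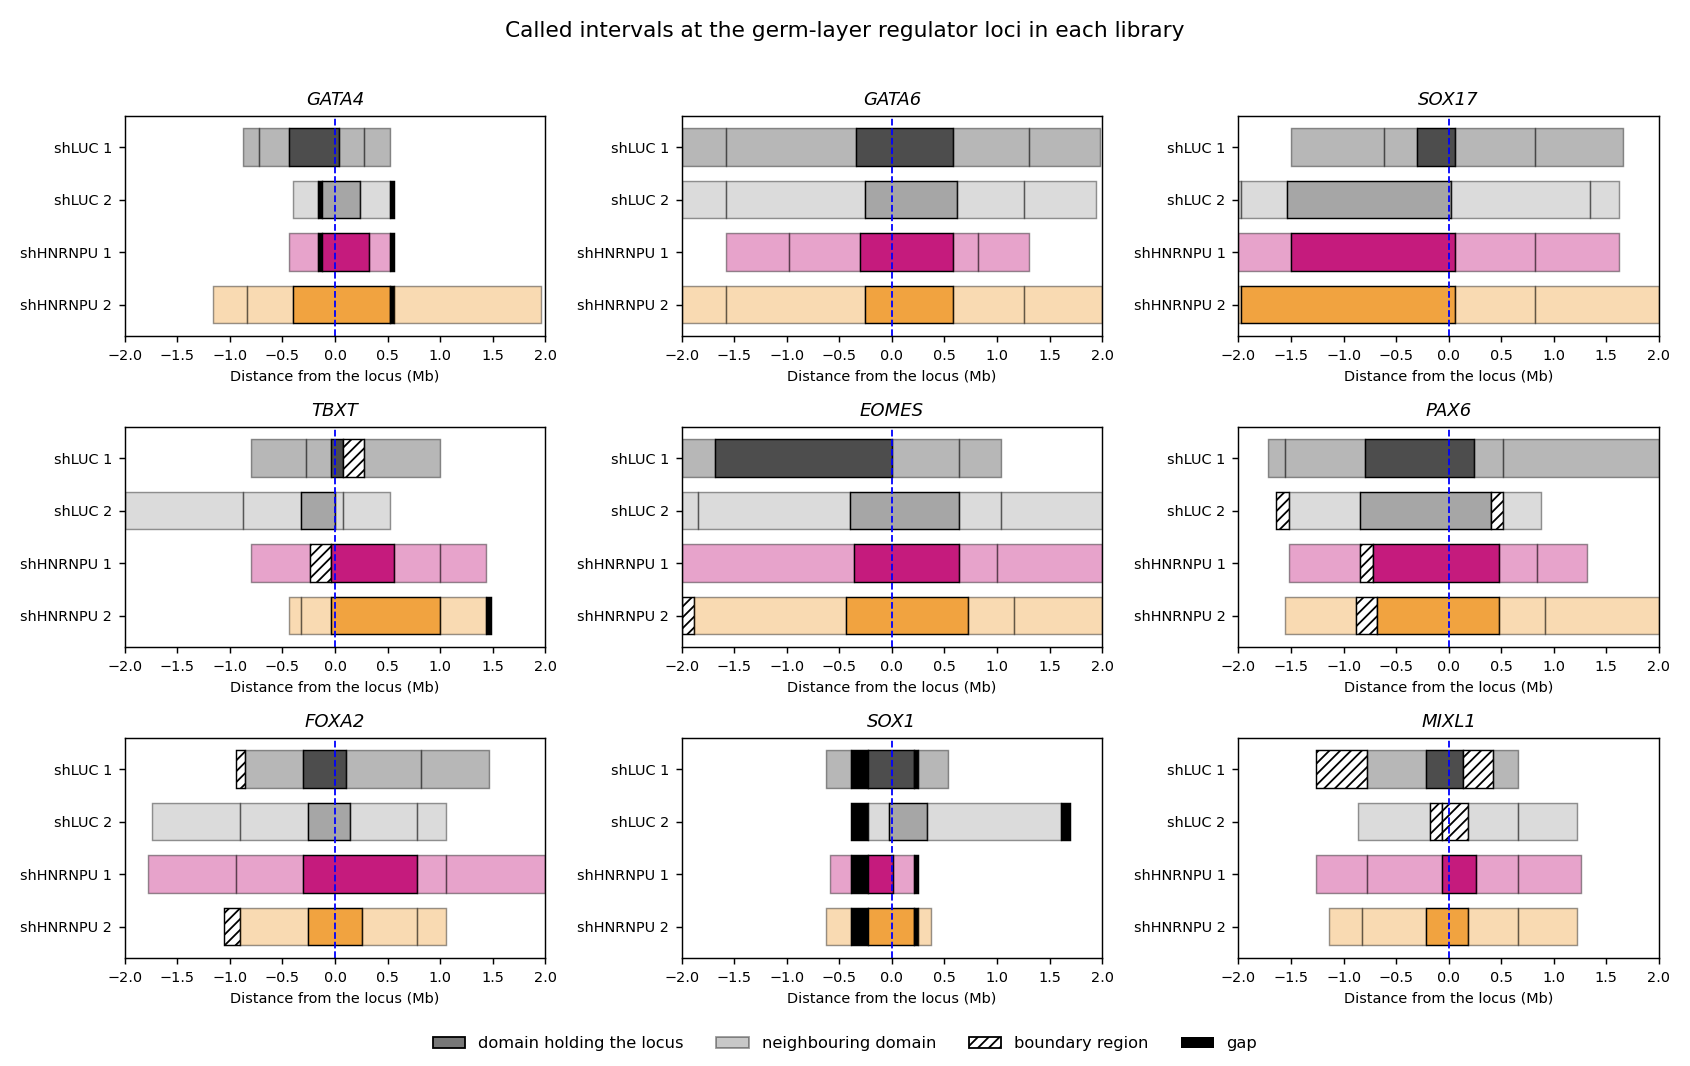
Map of the called intervals at each of the 9 loci, 1 row per library, with the distance from the locus in Mb on the x axis (dashed line at 0). Full colour marks the interval holding the locus, pale colour the 2 neighbouring domains on each side, hatching a boundary region (which holds MIXL1 in shLUC replicate 2) and black a gap, and intervals are cut off 2 Mb from the locus. The upper edge at SOX17 and GATA6 lines up in all 4 libraries, whereas the edges at TBXT and EOMES do not.

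The endoderm genes were examined first. GATA6, a zinc-finger factor of extraembryonic and definitive endoderm, lay in the most alike intervals of the 9 loci. The domain ran from 21840001 to 22760000 on chromosome 18 in shLUC replicate 1 (920 kb) and from 21920001 to 22800000 in shLUC replicate 2 (880 kb). It ran from 21880001 to 22760000 in shHNRNPU replicate 1 (880 kb) and from 21920001 to 22760000 in shHNRNPU replicate 2 (840 kb). The edges thus spanned 80 kb below the gene and 40 kb above it, and the sequence common to the 4 domains made up 87.5% of the sequence covered by any of them. The groups met at 880 kb, and the difference of means (shHNRNPU minus shLUC) was -40 kb (two-sided exact permutation p = 0.667, n = 2 per group). The neighbours varied more. The domain below it was 1240 and 1320 kb in the shLUC libraries and 1320 kb in shHNRNPU replicate 2, but 680 kb in shHNRNPU replicate 1, where a further border lay at 21200000. CTAGE1 was the other protein-coding gene that lay wholly in the shared 840 kb.

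FOXA2, a pioneer factor of endoderm, lay in a longer domain in both shHNRNPU libraries. The domain was 400 kb in both shLUC libraries, from 22280001 to 22680000 on chromosome 20 in replicate 1 and from 22320001 to 22720000 in replicate 2. It was 1080 kb in shHNRNPU replicate 1 (22280001 to 23360000) and 520 kb in shHNRNPU replicate 2 (22320001 to 22840000). The lower edge was kept within 40 kb in all 4 libraries and the change was at the upper edge, which spanned 680 kb. The mean was 400 ± 0 kb in shLUC and 800 ± 396 kb in shHNRNPU (SD, n = 2 per group), which differed by 400 kb (two-sided exact permutation p = 0.333). For 2 libraries against 2 this is the smallest p the test can give, so that no locus can pass the usual threshold. Without shHNRNPU replicate 1 the groups differed by 120 kb, and without replicate 2 of that group by 680 kb. In shHNRNPU replicate 1 the domain filled the whole stretch between the borders at 22280000 and 23360000 that all 4 libraries had within 1 bin, whereas each of the other 3 libraries had 1 further border inside it. By gene midpoints, no other protein-coding gene lay in the FOXA2 domain of either shLUC library, 5 did in shHNRNPU replicate 1 and 1 in shHNRNPU replicate 2.

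SOX17, an HMG-box factor of definitive endoderm, lay close to a border that all libraries shared. The upper edge was at 54520000 on chromosome 8 in 3 libraries and at 54480000 in shLUC replicate 2, 19.1 to 59.1 kb from the gene, a distance of under 2 bins. The lower edge spanned 1680 kb. The domain started at 54160001 in shLUC replicate 1 (360 kb), 52920001 in shLUC replicate 2 (1560 kb), 52960001 in shHNRNPU replicate 1 (1560 kb) and 52480001 in shHNRNPU replicate 2 (2040 kb). The groups met at 1560 kb, and shLUC replicate 1 stood apart from its own replicate. The difference of means was 840 kb (two-sided exact permutation p = 0.667), with an SD of 849 kb in shLUC and 339 kb in shHNRNPU. It was 240 kb without shLUC replicate 1, 1440 kb without shLUC replicate 2, 600 kb without the second shHNRNPU library and 1080 kb without the first, and it was -280 kb (exact permutation p = 1) when the position was moved 2 bins up, which places it across the shared border.

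GATA4, a factor of endoderm and heart, lay in a domain of 360 to 480 kb in 3 libraries and of 920 kb in the other. The domain was 480 kb in shLUC replicate 1 (11280001 to 11760000 on chromosome 8), 360 kb in shLUC replicate 2 (11600001 to 11960000) and 440 kb in shHNRNPU replicate 1 (11600001 to 12040000). In shHNRNPU replicate 2 it was 920 kb (11320001 to 12240000). That library alone was long. A gap of 40 kb, from 11560001 to 11600000, bordered the domain in shLUC replicate 2 and shHNRNPU replicate 1, and no gap was among the 5 intervals in shLUC replicate 1. The difference of means was 260 kb (two-sided exact permutation p = 0.667) and it fell to 20 kb when shHNRNPU replicate 2 was left out and came to 500 kb when replicate 1 of that group was. All 4 libraries had a border at 11280000 or 11320000 and one at 12240000. Between these there were 2 further borders in shLUC replicate 1, 3 in shLUC replicate 2, 3 in shHNRNPU replicate 1 and 0 in shHNRNPU replicate 2. No protein-coding gene lay wholly in the 160 kb common to the 4 domains.

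**Figure D2:**
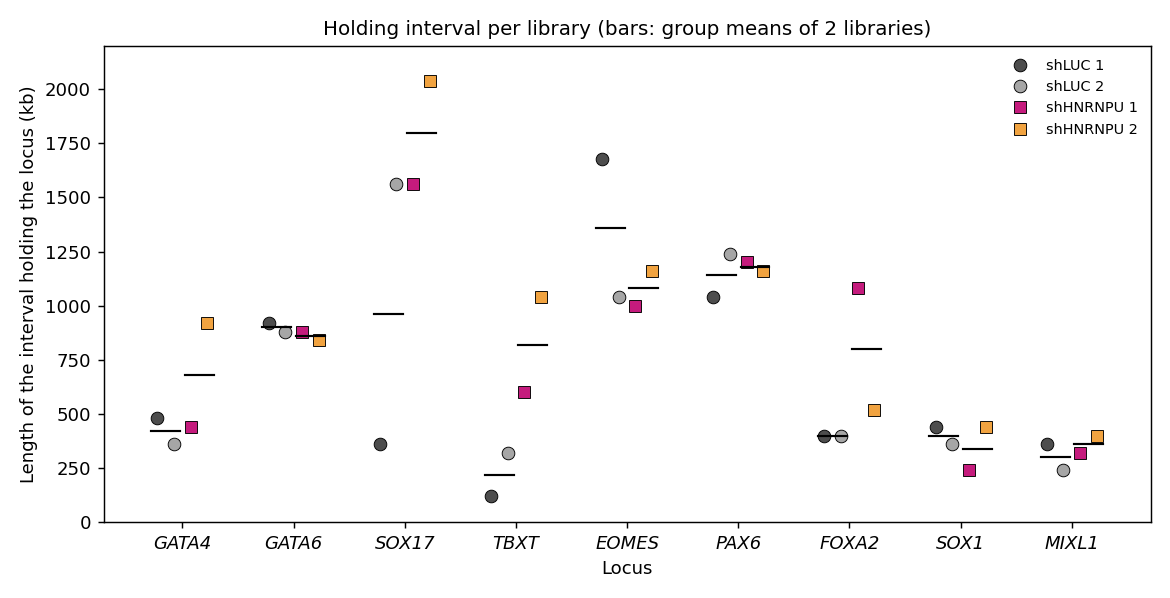
Length in kb of the interval holding each locus (y axis) for the 9 loci (x axis), with 1 point per library (circles shLUC, squares shHNRNPU) and black bars for the means of 2 libraries. The shHNRNPU squares lie above both shLUC circles at TBXT (600 and 1040 kb against 120 and 320 kb) and FOXA2, and the groups overlap or meet at the other 7 loci.

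Among the genes of the primitive streak, TBXT, the T-box factor that drives mesoderm formation, showed the second of the 2 separations. The domain was 120 kb in shLUC replicate 1 (166120001 to 166240000 on chromosome 6) and 320 kb in shLUC replicate 2 (165840001 to 166160000). It was 600 kb in shHNRNPU replicate 1 (166120001 to 166720000) and 1040 kb in shHNRNPU replicate 2 (166120001 to 167160000). Both shHNRNPU domains were thus longer than both shLUC domains. The shLUC mean was 220 ± 141 kb and the shHNRNPU mean 820 ± 311 kb (SD, n = 2 per group), a gap of 600 kb (two-sided exact permutation p = 0.333, the smallest possible). With each library left out in turn it was 380 kb (without shHNRNPU replicate 2) to 820 kb (without shHNRNPU replicate 1). The separation depended on which side of a border the gene was counted. A border at 166120000 lay 37.7 kb below the gene, under 1 bin, in 3 of the libraries, and in shLUC replicate 2 the border at 166160000 fell within the gene. With the position moved 2 bins down, below these borders, the difference was -40 kb (exact permutation p = 0.667). With the RefSeq start site as the position it was 720 kb (exact permutation p = 0.333), because shLUC replicate 2 then gave the next domain, of 80 kb (166160001 to 166240000).

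The neighbours of TBXT differed as well. Above it shLUC replicate 1 had a boundary region of 200 kb (166240001 to 166440000) and then a domain of 720 kb, and shLUC replicate 2 had a domain of 440 kb (166240001 to 166680000) after the 80 kb one. In shHNRNPU replicate 1 the boundary region lay below the gene instead (165920001 to 166120000). A border at 167160000 was present in all 4 libraries, and the domain of shHNRNPU replicate 2 extended to it. No other protein-coding gene had its midpoint in the TBXT domain in either shLUC library, whereas 5 did in shHNRNPU replicate 1 and 9 in shHNRNPU replicate 2.

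EOMES, a T-box factor of endoderm and cardiac mesoderm, lay at a border in 1 library only. In shLUC replicate 1 a border at 27720000 on chromosome 3 fell within the gene (27715953 to 27722713), 2.32 kb from its start site, a distance far below the bin. The domain that held the given position there was 1680 kb long (26040001 to 27720000). In the other 3 libraries the nearest border lay 356 to 436 kb from the gene. Their domains were 1040 kb in shLUC replicate 2 (27320001 to 28360000), 1000 kb in shHNRNPU replicate 1 (27360001 to 28360000) and 1160 kb in shHNRNPU replicate 2 (27280001 to 28440000). These 3 domains were alike, with lower edges within 80 kb and upper edges within 80 kb of each other. The difference of means was -280 kb (two-sided exact permutation p = 0.667), and shLUC replicate 1 set its sign. It was 40 kb (exact permutation p = 1) without that library and 240 kb (p = 0.667) with the RefSeq start site, which lies on the upper side of the border, as the position. SLC4A7 lay wholly in the 360 kb common to the 4 intervals, whereas EOMES itself reached past its upper end.

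MIXL1, a homeobox factor of the streak, lay in short intervals in all libraries. The interval was a domain of 360 kb in shLUC replicate 1 (226000001 to 226360000 on chromosome 1), a boundary region of 240 kb in shLUC replicate 2 (226160001 to 226400000), and domains of 320 kb in shHNRNPU replicate 1 (226160001 to 226480000) and 400 kb in shHNRNPU replicate 2 (226000001 to 226400000). The groups overlapped, with a difference of 60 kb (two-sided exact permutation p = 0.667). It was 0 kb without shLUC replicate 2, 120 kb without shLUC replicate 1, 20 kb with shHNRNPU replicate 2 left out, 100 kb with replicate 1 of that group left out, and 320 kb (exact permutation p = 0.333) with the position moved 2 bins down. Boundary regions also flanked the gene in the shLUC libraries. One of 280 kb lay above the domain in replicate 1 (226360001 to 226640000), and one of 120 kb lay below the holding interval in replicate 2 (226040001 to 226160000). In the shHNRNPU libraries the holding interval and its 2 neighbours on each side were all domains. LIN9 lay wholly in the 200 kb common to the 4 intervals.

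The neural genes differed in the size of their domains and neither separated the groups. PAX6, a paired-box factor of eye and forebrain, lay in a domain of 1040 kb in shLUC replicate 1 (31000001 to 32040000 on chromosome 11) and 1240 kb in shLUC replicate 2 (30960001 to 32200000). It was 1200 kb in shHNRNPU replicate 1 (31080001 to 32280000) and 1160 kb in shHNRNPU replicate 2 (31120001 to 32280000). Both shHNRNPU lengths lay between the shLUC lengths, and the difference was 40 kb (two-sided exact permutation p = 1). It was -60 kb without shLUC replicate 1 and 140 kb without shLUC replicate 2. Both shHNRNPU domains started 80 to 160 kb above the shLUC domains and ended 80 to 240 kb above them, which was so at 1 of 9 loci (beside 1.12% of all genes in domains) and was looked for after the values were seen. A boundary region lay directly below the domain in both shHNRNPU libraries (120 and 200 kb). In shLUC replicate 2 one of 120 kb lay directly above it (32200001 to 32320000) and another lay 2 intervals below it, and shLUC replicate 1 had none among the 5 intervals. The 920 kb shared by the 4 domains held ELP4, whose introns carry known PAX6 enhancers, IMMP1L and DNAJC24, all wholly inside.

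SOX1, an HMG-box factor and early neural marker, lay near the end of chromosome 13 between gaps. The domain was 440 kb in shLUC replicate 1 and in shHNRNPU replicate 2, both from 111840001 to 112280000, with a gap on each side. It was 360 kb in shLUC replicate 2 (112040001 to 112400000) and 240 kb in shHNRNPU replicate 1 (111840001 to 112080000). Thus the only pair of libraries with the same SOX1 domain came from different groups. A gap of 160 kb (111680001 to 111840000) was called in all 4 libraries, and one of 40 kb (112280001 to 112320000) in all but shLUC replicate 2. The difference of means was -60 kb (two-sided exact permutation p = 1), and it was 40 kb without shHNRNPU replicate 1. With the position moved 2 bins down it was 20 kb. A border lay 8.29 kb from the gene in shHNRNPU replicate 1 and 27.1 kb from it in shLUC replicate 2, both under 1 bin. No other protein-coding gene had its midpoint in the SOX1 domain in any library.

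Counted over the loci, the interval was longer in both shHNRNPU libraries than in both shLUC libraries at 2 of 9 loci (22.2%, TBXT and FOXA2), beside 19.9% of all protein-coding genes placed in domains, and shorter in both at 0 of 9 loci, beside 7.09%. Neither share stood far from that of all genes. shHNRNPU replicate 2 alone was longer than both shLUC libraries at 5 of 9 loci, beside 55% of all genes, and shHNRNPU replicate 1 alone at 2 of 9, beside 30.3%. The interval was shorter than both shLUC libraries at 1 of 9 loci in replicate 2 and at 2 of 9 in replicate 1, beside 17.1% and 26.7%. By same-numbered pairs, shHNRNPU was longer in both pairs at 3 of 9 loci (beside 28.7% of all genes) and shorter in both at 1 of 9 (beside 11.3%). With bins in place of genes, 15.7% were longer and 10.6% shorter in both shHNRNPU libraries. The mean length over the 9 loci was 644 kb (replicate 1) and 711 kb (replicate 2) in shLUC, and 813 and 947 kb in shHNRNPU. The difference was 202 kb, or 29.8% of the shLUC mean, and 136 kb (20%) without shHNRNPU replicate 2. For all genes in domains it was 430 kb, or 37.8%, and 91.9 kb (8.08%) without shHNRNPU replicate 2. As a percentage, the mean difference at the loci was thus below that of all genes with all libraries and above it without that library. Taken on medians it was 480 kb (114% of shLUC) at the loci and 240 kb (33.3%) for all genes. Without shHNRNPU replicate 2 it was 460 kb (110%) and 40 kb (5.56%). A median of 9 unevenly spaced lengths rests on the middle one and can move in large steps. In shLUC replicate 2 the middle length was 400 kb (FOXA2) and the next longer one 880 kb (GATA6). By locus, the difference of means ran from -280 kb (EOMES) to 840 kb (SOX17). In shLUC the median over the loci was 440 and 400 kb, below the 720 kb of all genes in both libraries. In shHNRNPU it was 880 and 920 kb, beside 760 and 1160 kb for all genes.

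Next, libraries were compared in pairs by the 18 edges of the 9 intervals. Edges lay within 1 bin of each other for 6 of 18 edges between the shLUC libraries and for 8 of 18 between the shHNRNPU libraries. Between the groups, shLUC replicate 1 matched 6 edges of shHNRNPU replicate 1 and 9 of shHNRNPU replicate 2, and shLUC replicate 2 matched 9 and 6. Pairs within a group thus matched no better than pairs between groups. For all genes the 6 pairs matched 38.3% to 50.9% of edges.

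The number of domain borders within 1 Mb of the loci was then counted. Around the 9 loci shLUC replicate 1 had 43 borders, its replicate 2 had 35, and shHNRNPU replicates 1 and 2 had 42 and 37. The means were 39 ± 5.66 borders for shLUC and 39.5 ± 3.54 for shHNRNPU (SD, n = 2 per group). The difference of 0.5 borders was within the spread between replicates, and it was -6.5 in a window of 2 Mb. Over the whole genome there were 4941 and 4942 borders in shLUC and 4834 and 4168 in shHNRNPU. Per 1000 borders of the library, the means near the loci were 7.89 ± 1.15 for shLUC and 8.78 ± 0.133 for shHNRNPU. They differed by 0.89. SOX1 had 5 to 9 borders per library, TBXT 6 to 8 and GATA4 4 to 7, and GATA6, SOX17, EOMES, PAX6 and FOXA2 had 4 or fewer in every library. Of the borders near the loci, 41.9% to 51.4% per library were found within 1 bin in all 4 libraries, beside 40% to 46.4% of all borders. At least 1 border common to the 4 libraries lay within 1 Mb at 8 of the 9 loci, a description only, since the share of all genes was not taken. The exception was EOMES, whose nearest common borders were at 25600000 and 30760000, so that the stretch between them was 5160 kb. The stretch between common borders was shortest at GATA4 (920 kb) and FOXA2 (1040 kb).

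**Figure D3:**
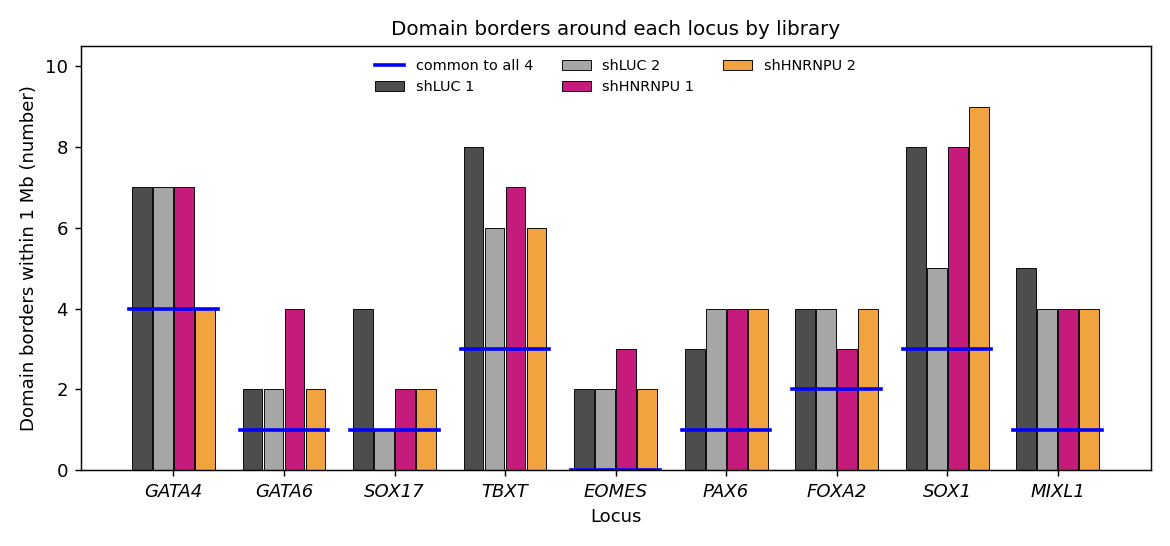
Number of domain borders within 1 Mb of each locus (y axis) in each of the 4 libraries (bars), with a blue line for the number that all 4 libraries had within 1 bin. The bars of a locus differ by at most 4 borders, and the line is at 0 at EOMES and at 4 at GATA4.

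A border fell within the gene itself at 3 of the 9 loci, each time in 1 shLUC library. These were GATA4 and EOMES in shLUC replicate 1 (2 of 9 genes, beside 11% of all protein-coding genes) and TBXT in shLUC replicate 2 (1 of 9, beside 11%). In the shHNRNPU libraries there were 0 of 9 (beside 10.4% and 8.5%). These shares are for single libraries. The share of all genes with a border inside in any library was not taken, so the 3 of 9 is a description only. The GATA4 border, at 11760000, lay at the very end of the gene, and all 3 borders lay nearer to a gene end than 1 bin, so that this count is at the limit of the files.

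The same measures were taken at 30 other genes that mark or direct the germ layers. A domain held 28 of them in all 4 libraries. The interval was longer in both shHNRNPU libraries at 7 of the 30 (23.3%, beside 19.9% of all genes) and shorter at 2 (6.67%, beside 7.09%), again near the shares of all genes. Among the longer ones were HNF4A, a regulator of liver and pancreas, and SIX3, a forebrain regulator. HNF4A lay in domains of 840 and 560 kb in shLUC and of 1480 and 2480 kb in shHNRNPU (difference 1280 kb). SIX3 lay in 640 and 600 kb in shLUC and in 1400 and 2280 kb in shHNRNPU (1220 kb). These differences were larger than those at FOXA2 and TBXT, but the 2 genes were named for being among the largest separations of the 30. The smallest difference among the 7 was 60 kb. The shorter intervals were at TBX5, a heart and limb factor (680 and 720 against 560 and 640 kb), and NEUROG1, a proneural factor (360 and 440 against 320 kb in both). Both edges were kept within 1 bin at 1 of the 30 genes, SOX7, an endodermal SOX factor named for this after its value was seen (280 to 360 kb), which is 3.33% beside 5.98% of all genes. The count at the same bin in all 4 libraries was 0 of 30, beside 0.995%. At least 1 edge was kept at 16 of the 30 (53.3%, beside 33.9% of all genes). The shares of all genes given here cover only genes in a domain in all 4 libraries, whereas the 30 include some that were not. By layer, 3 of 10 endoderm genes, 2 of 10 mesoderm genes and 2 of 10 ectoderm genes were longer in both shHNRNPU libraries. MESP1 and MESP2 are neighbours and shared the same domain in length in every library.

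**Figure D4:**
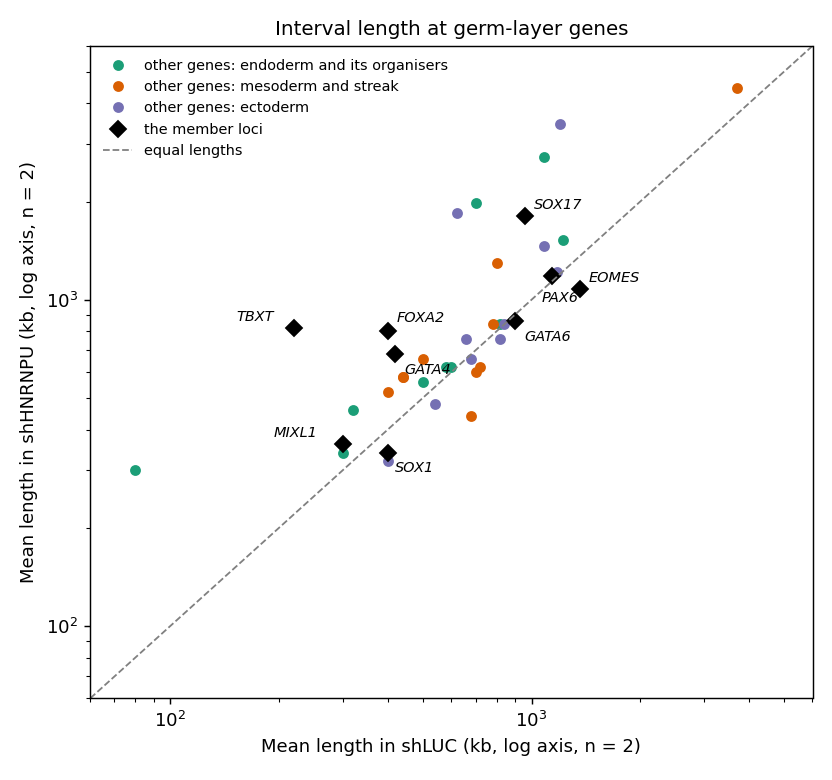
Mean length in kb of the interval holding each gene in shLUC (x axis) against shHNRNPU (y axis), both log axes with n = 2 libraries, for the 9 loci (black diamonds, named) and 30 other germ-layer genes coloured by layer. TBXT, FOXA2, GATA4 and SOX17 lie above the dashed line of equal lengths, EOMES lies below it (1360 against 1080 kb), and other mesoderm and ectoderm genes lie on both sides of the line.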

How the data were processed

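For each of the 4 Hi-C libraries the deposited files used here hold the start and end of domains, boundary regions and gaps as the authors called them, with no column of scores or contacts. The submitters' processing notes name Bowtie2 and hg38. The domain caller, its settings and the matrix normalization are not given in the sources used here, and depth, which can change the number and length of domains, is unknown. No method was taken from the linked paper, which describes another experiment. Starts were counted from 1, and intervals of 0 bp were left out.

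The locus positions came with the definition of the gene set, and other genes were placed by their midpoint in the RefSeq table (GRCh38.p14), which held all 9. Members, lists and rules were chosen with earlier results of these data known. An edge was kept when its positions in the 4 libraries spanned at most 1 bin (40 kb). Group means of interval length were compared per locus by a two-sided exact permutation test over the libraries. Counts over loci were set beside the share of all protein-coding genes and carry no test. All 9 genes were named, with up to 3 genes that lay wholly in the shared sequence. Of the 30 other genes, those with both edges at the same bin in all libraries and up to 3 of the largest separations in each direction were named, except 1 that is counted but not reported here. Alternatives were another tolerance, margin, window or summary, log2 length, the RefSeq start site (given position where unmatched), leaving out a library, a replicate block and, chosen after seeing the data, positions moved by 2 bins, all bins as background and the all-gene length without shHNRNPU replicate 2 or as a median. Calls were tested on simulated data, copies of 1 library with some neighbouring domains fused. These held no spread between replicates, so the rate of false calls in real libraries was not measured. Python 3.11.15 and matplotlib 3.10.9 were used.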

Additional observations from a re-analysis of the deposited data

How the results depend on the processing

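Of 81 alternative length differences at single loci, 72 kept the sign of the reported value, 1 was 0 (MIXL1 without shLUC replicate 2) and 8 had the opposite sign, and 3 loci (GATA4, GATA6 and FOXA2) kept the sign throughout. At EOMES (-280 kb) the difference was 240 kb at the RefSeq start site and with the position moved 2 bins higher, and -600 to 40 kb with a library left out (40 kb without shLUC replicate 1). At SOX17 (840 kb) it was -280 kb with the position 2 bins higher. At TBXT (600 kb) it was -40 kb and at SOX1 (-60 kb) 20 kb with the position 2 bins lower. At PAX6 (40 kb) it was -60 kb (without shLUC replicate 1) to 140 kb with a library left out, and at SOX1 -160 to 40 kb (without shHNRNPU replicate 1). Gene and border lie within about 2 bins of each other in at least 1 library at EOMES, SOX17 and TBXT. This was also so at SOX1 (8.29 kb in shHNRNPU replicate 1), MIXL1 (63.7 kb in shHNRNPU replicate 1) and GATA4 (a border within the gene in shLUC replicate 1, and 76.9 kb in shLUC replicate 2). About 2 bins is also how far chromosome ends departed from hg38.

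With each library left out in turn, the loci with both edges kept numbered 0 to 1, those longer in both shHNRNPU libraries 2 to 5 and those shorter 0 to 2, since fewer libraries had to agree. The 5 was the count without shHNRNPU replicate 1. Both edges were kept at 1 locus (GATA6) within 2 bins. The mean length difference of 202 kb ranged from 136 kb (without shHNRNPU replicate 2) to 269 kb (without shHNRNPU replicate 1). It was 480 kb when the median over the loci was taken, which rests on the middle length alone. That length was 440 and 400 kb in shLUC and 880 and 920 kb in shHNRNPU. The cause of the length difference was not tested. The difference of 0.5 borders ranged from -3.5 (without shLUC replicate 2) to 4.5 (without shLUC replicate 1) and was -2 without shHNRNPU replicate 1. It was -1 with the position 2 bins higher, -1.5 in a window of 0.5 Mb and -6.5 in one of 2 Mb, so its sign was not stable.

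The replicate block sets same-numbered libraries against each other. Its differences of means (202 kb and 0.5 borders) equal the reported ones by construction. It had 3 loci longer in both pairs (28.7% of all genes) and 1 shorter (11.3% of all genes). The smallest sign-flip p with 2 pairs is 0.5, and nothing in the labels says that a number marks a shared batch. Over the 9 loci, deviations from the group means correlated at 0.30 between libraries of the same number, a description only.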
